A study of Mus musculus with 32 samples.

Results

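The genes described here are 10 markers of regulatory T cells and immune checkpoints in mouse mammary tumours: Foxp3, Il2ra, Ctla4, Icos, Pdcd1, Lag3, Tigit, Havcr2, Cd274 and Pdcd1lg2. They form a set by their known roles, not by a cut on their levels in these arrays, and were found by matching each probe's RefSeq accession to a gene symbol. All 10 were on the array, among 20145 named genes. Each had 1 probe except Icos, which had 2, and its brighter one over the 32 arrays stands for it below, with the other reported beside it. Well above background on all 32 arrays were 7 of the genes. Il2ra was well above background on 31, and Foxp3 and Ctla4 each on 29.

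Regulatory T cells are CD4 T cells that restrain other immune cells. Foxp3 is the transcription factor that defines them, and Il2ra, the high-affinity chain of the IL-2 receptor, and Ctla4, a receptor that competes with Cd28 for its ligands, are characteristic of them, although activated T cells of other kinds carry both. Checkpoint receptors such as Pdcd1 (PD-1), Lag3, Tigit and Havcr2 (TIM-3) damp T cell and natural killer cell activity, whereas Icos is a co-stimulatory receptor. Cd274 (PD-L1) and Pdcd1lg2 (PD-L2) are the ligands of Pdcd1 and can be made by tumour, endothelial and myeloid cells, and Havcr2 is also carried by macrophages and dendritic cells.

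The tumours were grown from 4T1-Luc cells, a mouse mammary carcinoma line carrying luciferase, injected into a mammary fat pad of Balb/C mice, which were female and 8 weeks old. After 1 week the mice received sunitinib at 40 mg/kg, an inhibitor of VEGF receptors and other receptor tyrosine kinases, or the PBS and DMSO vehicle alone. Tumours resected at 1300 mm3 were digested and split by PECAM-1 antibody on magnetic beads into an endothelial (EC) fraction and the remaining bulk fraction, whereas tumours resected at day 9 or at 600 mm3 were profiled as bulk tumour. Each array measured 1 tumour fraction or 1 unsplit tumour. At 1300 mm3 there were 4 sunitinib mice labelled resistant up to day 8, 4 sunitinib mice labelled sensitive up to that day and 4 vehicle mice, each with both fractions, which makes 24 arrays. The other 8 arrays were 2 sunitinib and 2 vehicle tumours at day 9, and 2 sunitinib and 2 vehicle tumours at 600 mm3. The sunitinib tumours of these smaller stages were all from mice labelled sensitive.

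Levels are log2 processed intensities minus the 75th percentile of the same array, so a value of 0 lies at that percentile and a negative value below it. A level of one gene cannot be set against a level of another on this scale, because each probe has its own brightness. Differences were tested with limma over all genes that passed the background filter, and a difference was called at a Benjamini-Hochberg adjusted p under 0.05. The arrays lay on 4 slides of 8. All resistant arrays lay on 1 slide, all smaller tumours on another, and the sensitive and vehicle arrays on 1 slide for each fraction, so resistance, tumour size and, outside the resistant mice, fraction cannot be told apart from slide. Fewer probes stood well above background in resistant EC, 46.1% to 52.9% of them, than in sensitive EC, with 79.9% to 86.4%, and vehicle EC, with 80.3% to 82.2%. The share was 55.3% to 83.4% on all bulk arrays.

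Cell type markers set the frame for these levels. Endothelial markers were higher in the EC fraction than in bulk for 12 of 12 genes tested, by a median of 5.17 on the log2 scale, and tumour epithelial markers were lower for 10 of 10. The tumour epithelial mean was still 2.68, 3.15 and 3.21 in sensitive, resistant and vehicle EC, against 4.44, 4.41 and 4.47 in bulk. All 10 of these genes stood well above background on every EC array. T cell markers were also measured in both fractions. Their mean level over 16 genes was -1.19 to 0.24 in resistant EC, -0.39 to 0.88 in sensitive EC and -1.12 to 2.48 in vehicle EC. It was 1.12 to 1.55 in resistant bulk, 0.84 to 2.89 in sensitive bulk and -0.73 to 2.77 in vehicle bulk. Of those 16 genes, only Ubash3a in resistant EC and only Trat1 in sunitinib tumours at day 9 were well above background on no array of a group. The bulk array of vehicle mouse 3 stood apart from the other 3 vehicle bulk arrays. Its endothelial marker mean was 0.43, against -3.78 to -3.33 in those 3, its neutrophil mean was 1.07, against 2.25 to 4.64, and its T cell mean, -0.73, was the lowest of the 12 bulk arrays at 1300 mm3. In such mixed tissue, fewer cells of a type and less RNA per cell cannot be told apart.

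**Figure D1:**
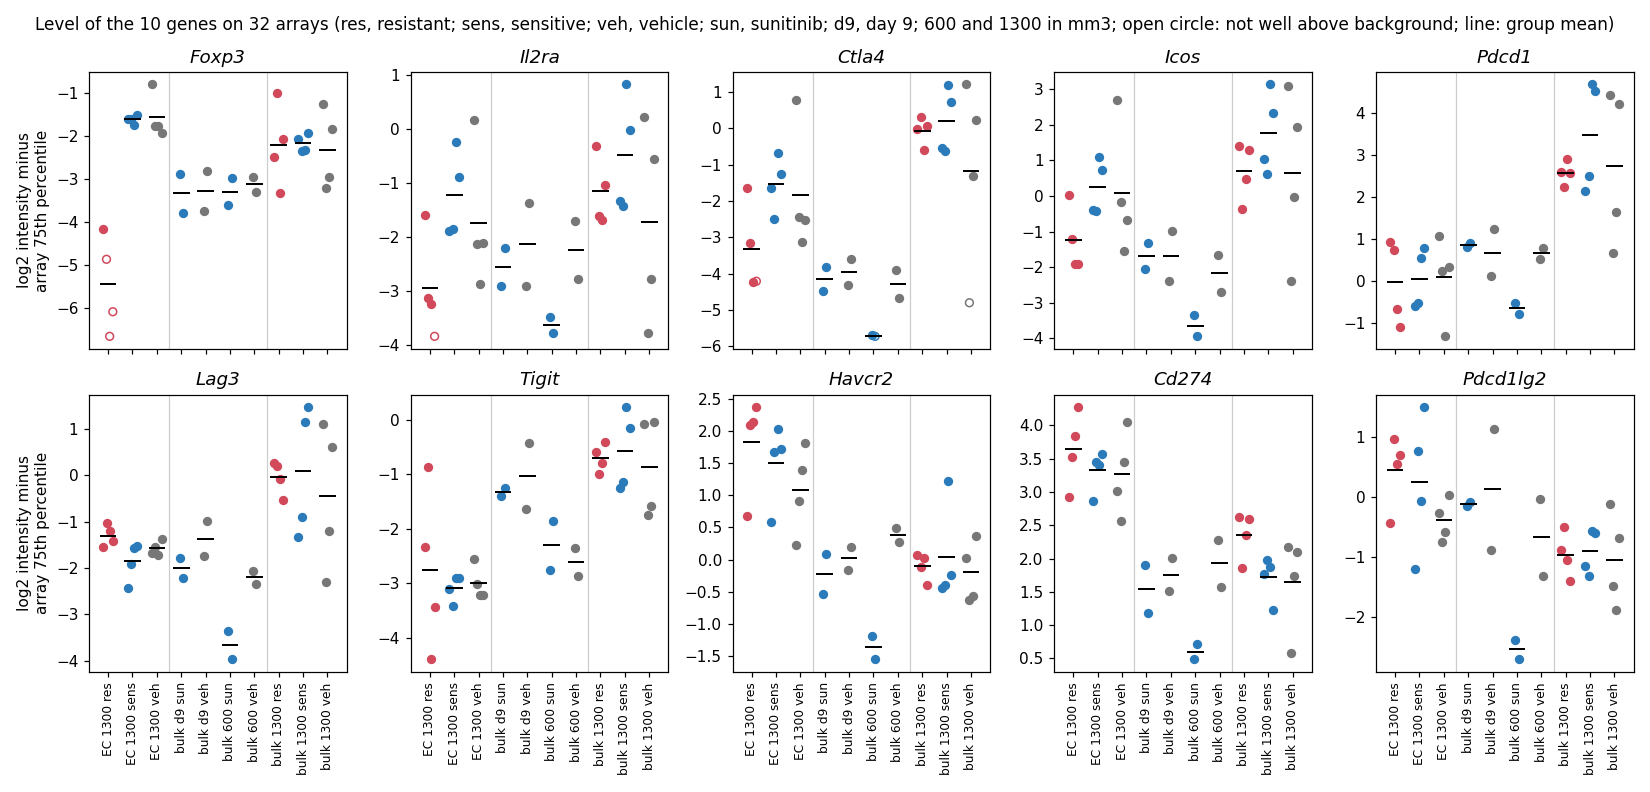
Levels of the 10 genes on all 32 arrays, as log2 processed intensity minus the array's 75th percentile (y axis), by group (x axis); points are tumours and bars are group means. Foxp3 in resistant EC lies below all other groups, Pdcd1 is higher in the bulk fractions at 1300 mm3 than in any EC group on average, and Cd274 and Havcr2 are highest on average in the 3 EC groups.

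The promoter windows of 5 of these genes are printed because the results below turn on their levels. They cover 250 bases before to 50 bases after an annotated start, from RefSeq on GRCm38.p6, on the strand of the gene, and the windows of Cd274 and Pdcd1lg2 lie close together on chromosome 19. They are Foxp3 at chrX:7580233-7580532 (+), Ctla4 at chr1:60908775-60909074 (+), Pdcd1 at chr1:94052504-94052803 (-), Cd274 at chr19:29367188-29367487 (+) and Pdcd1lg2 at chr19:29410669-29410968 (+). Capitals mark matches to the motifs named after the sequences.
Foxp3: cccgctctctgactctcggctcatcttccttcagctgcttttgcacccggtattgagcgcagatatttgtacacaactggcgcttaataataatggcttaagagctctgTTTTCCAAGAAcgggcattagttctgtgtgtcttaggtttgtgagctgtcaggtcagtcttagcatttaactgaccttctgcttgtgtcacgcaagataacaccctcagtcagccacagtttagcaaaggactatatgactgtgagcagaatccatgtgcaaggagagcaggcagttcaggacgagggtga
Ctla4: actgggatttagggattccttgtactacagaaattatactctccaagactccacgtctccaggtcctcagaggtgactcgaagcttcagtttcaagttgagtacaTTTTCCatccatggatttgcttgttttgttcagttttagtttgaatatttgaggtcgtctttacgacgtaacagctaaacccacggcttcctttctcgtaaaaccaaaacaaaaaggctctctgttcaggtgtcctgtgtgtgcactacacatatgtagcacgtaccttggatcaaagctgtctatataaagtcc
Pdcd1: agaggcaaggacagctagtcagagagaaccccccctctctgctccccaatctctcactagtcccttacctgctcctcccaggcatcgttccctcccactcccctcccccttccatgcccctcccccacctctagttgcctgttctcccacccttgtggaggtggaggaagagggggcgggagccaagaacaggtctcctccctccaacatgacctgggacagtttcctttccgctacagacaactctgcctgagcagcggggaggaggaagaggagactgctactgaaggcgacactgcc
Cd274: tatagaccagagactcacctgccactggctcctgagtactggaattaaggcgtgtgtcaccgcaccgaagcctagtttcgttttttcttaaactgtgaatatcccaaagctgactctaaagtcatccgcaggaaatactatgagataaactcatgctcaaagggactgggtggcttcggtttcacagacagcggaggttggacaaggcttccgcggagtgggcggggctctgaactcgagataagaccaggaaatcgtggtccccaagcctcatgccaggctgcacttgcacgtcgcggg
Pdcd1lg2: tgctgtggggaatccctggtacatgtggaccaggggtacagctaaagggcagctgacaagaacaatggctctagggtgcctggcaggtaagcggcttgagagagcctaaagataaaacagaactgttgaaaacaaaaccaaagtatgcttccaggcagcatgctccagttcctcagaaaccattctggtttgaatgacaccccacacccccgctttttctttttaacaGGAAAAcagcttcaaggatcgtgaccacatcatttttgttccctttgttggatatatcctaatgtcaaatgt

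Windows of 8 of the 10 genes were searched on both strands, 9 windows in all because Foxp3 has 2. The interferon-gamma activated site, TTCNNNGAA, which STAT factors bind, occurred in 1 member window, the printed one of Foxp3, at position -139 from the start. It occurs in 8.3% of all 32851 windows. There it overlaps a core of the NFAT site, GGAAAA on the reverse strand at position -141. NFAT transmits T cell receptor signals, and its core occurred in 4 of the 9 windows, also those of Ctla4 at -145, Pdcd1lg2 at -22 and Tigit at -14, against 23.4% of all windows. The interferon regulatory factor motif, searched as 2 copies of GAAA with 2 bases of any kind between them and found in 3.44% of all windows, was in none of the 9. A match describes letters only, and its absence says only that these letters are not in the window.

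The first question was which fraction of a 1300 mm3 tumour held the RNA of these genes. In the EC fraction 7 were lower than in bulk and 3 were higher, so all 10 were called, where 51.9% of all 18277 genes tested were called. The 7 lower genes were Foxp3, Il2ra, Ctla4, Icos, Pdcd1, Lag3 and Tigit. The 3 higher ones were Havcr2 and both ligands of Pdcd1.

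Pdcd1, the receptor that marks antigen-experienced and exhausted T cells, had the largest difference of the 10. Its lowest, median and highest levels were -1.33, 0.28 and 1.07 in the 12 EC fractions, against 0.65, 2.58 and 4.68 in the 12 bulk fractions. The difference within a mouse, EC minus bulk, was -4.13, -3.20 and -0.41 at the lowest, median and highest, and it was negative in 12 of 12 mice. The fitted difference was -2.90 (SE 0.31, adjusted p = 3e-05), which is 7.44-fold lower in EC. Tigit, an inhibitory receptor of T and natural killer cells, was -4.38, -3.06 and -0.87 in EC, against -1.74, -0.69 and 0.23 in bulk. It was lower in EC in 11 of 12 mice, with a fitted difference of -2.23 (SE 0.30, adjusted p = 0.000106).

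Ctla4 and Icos, both members of the Cd28 receptor family, were lower in EC in 11 of 12 mice each. Ctla4 was -4.23, -2.47 and 0.78 in EC, against -4.80, 0.01 and 1.21 in bulk, a fitted difference of -1.87 (SE 0.39, adjusted p = 0.00185). Icos was -1.92, -0.42 and 2.68 in EC, against -2.40, 1.16 and 3.13 in bulk, a difference of -1.35 (SE 0.36, adjusted p = 0.00827). The ranges of the fractions overlap for both genes, and vehicle mouse 2 was the highest of the EC fractions for each. The second Icos probe gave a difference of -1.47 (SE 0.32, adjusted p = 0.003).

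Lag3, an inhibitory receptor for MHC class II, was -2.44, -1.54 and -1.03 in EC, against -2.30, 0.05 and 1.47 in bulk, with a difference of -1.45 (SE 0.29, adjusted p = 0.00169). Il2ra was -3.84, -2.01 and 0.17 in EC, against -3.77, -1.19 and 0.82 in bulk, with a difference of -0.84 (SE 0.23, adjusted p = 0.0102). Each was lower in EC in 11 of 12 mice, and the fractions' ranges overlap for both. The Il2ra call was lost with quantile scaling (-0.64, adjusted p = 0.14), with the deposited values (-0.57, adjusted p = 0.0858) and without the mouse block (adjusted p = 0.138), and the Icos call without the block (adjusted p = 0.0532). Vehicle mouse 3 was the mouse in which Il2ra, Ctla4, Icos and Lag3 were higher in EC than in bulk. Without that mouse all 10 members were still called.

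T cell markers were lower in EC too. Of 16 T cell marker genes tested, 14 were lower and 0 higher in EC, with a median of -1.36 against -0.06 over all genes. Cd8a, a chain of the cytotoxic T cell co-receptor, differed by -2.54 and the T cell receptor kinase Zap70 by -2.07. Natural killer and cytotoxic markers were lower for 7 of 10. The part of these markers in the member differences was not tested.

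The ligands moved the other way. Cd274 was 2.57, 3.45 and 4.28 in EC, against 0.58, 1.93 and 2.62 in bulk, and the 2 ranges nearly separate. It was higher in EC in 12 of 12 mice, by 1.51 (SE 0.16, adjusted p = 2.74e-05), a fold of 2.84. Pdcd1lg2 was -1.20, -0.02 and 1.50 in EC, against -1.89, -0.97 and -0.12 in bulk, higher in EC in 10 of 12 mice, by 1.07 (SE 0.22, adjusted p = 0.00196).

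Havcr2 followed the ligands and not the other receptors. It was 0.23, 1.70 and 2.37 in EC, against -0.62, -0.18 and 1.22 in bulk, and was higher in EC in 12 of 12 mice, by 1.56 (SE 0.21, adjusted p = 0.000121). Macrophage and dendritic markers were also higher in the EC fraction, 9 of 14 tested, with a median of 2.07. Among them, Adgre1 (F4/80) differed by 2.90 and the mannose receptor Mrc1 by 2.94. Their part in Havcr2 and the ligands was not tested.

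**Figure D2:**
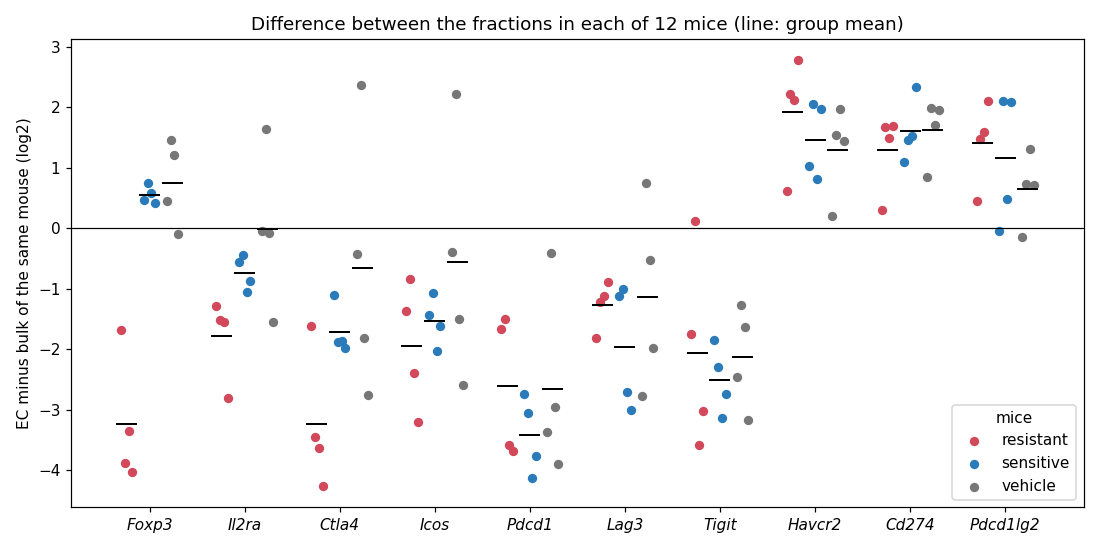
Differences between the fractions of each 1300 mm3 tumour, EC minus bulk of the same mouse on the log2 scale (y axis), for the 10 genes (x axis). Points are resistant, sensitive and vehicle mice, and bars are group means. Pdcd1 points lie below 0 in 12 of 12 mice, and Cd274 and Havcr2 points lie above 0 in 12 of 12. The Foxp3 points of resistant mice lie on the other side of 0 from those of most other mice.

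Foxp3 did not share this pattern across the treatment groups. In resistant mice it was -4.17, -4.87, -6.67 and -6.09 in EC (mice 1 to 4), against -2.48, -0.99, -3.33 and -2.06 in bulk, and the fractions did not overlap. Of these 4 EC values, only that of mouse 1 was well above background. The other 3 lay below the lowest signal well above background on their arrays, which was -3.95, -4.91 and -4.09, so Foxp3 has no fixed level there. In sensitive mice it was -1.61, -1.60, -1.75 and -1.50 in EC (mice 2 to 5), against -2.08, -2.34, -2.33 and -1.93 in bulk. In vehicle mice it was -0.80, -1.77, -1.76 and -1.94 in EC (mice 2 to 5), against -1.26, -3.22, -2.96 and -1.84 in bulk.

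The fitted difference between fractions was -3.24 (SE 0.35, adjusted p = 0.000568) in resistant mice, 0.56 (SE 0.35, adjusted p = 0.255) in sensitive mice and 0.76 (SE 0.35, adjusted p = 0.134) in vehicle mice. With the 3 dim arrays set at their lowest signal well above background, Foxp3 was at least 4.18-fold lower in resistant EC than in resistant bulk. This bound holds only for the main background and scaling. The mean over the 3 groups, -0.64 (SE 0.20, adjusted p = 0.0205), took its sign from the resistant mice, and EC minus bulk was positive in 7 of 12 mice with a median of 0.44. With normexp background correction the mean turned to 0.07 (adjusted p = 0.614), and with the deposited values it was -0.22 (adjusted p = 0.17). The call was also lost with quantile scaling (-0.50, adjusted p = 0.108) and without the mouse block (adjusted p = 0.0798). Il2ra and Ctla4 also differed most in resistant mice, at -1.79 and -3.24, against -0.73 and -1.71 in sensitive and -0.01 and -0.66 in vehicle mice. Each was well above background on 3 of the 4 resistant EC arrays. These vehicle means include mouse 3, at 1.63 and 2.36. In the other vehicle mice the ranges were -1.56 to -0.04 for Il2ra and -2.75 to -0.42 for Ctla4. The resistant effect was not called different between the fractions for either gene.

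Within each treatment group alone, fewer differences passed. In resistant mice, where both fractions lay on 1 slide, 3 genes were higher and 6 lower in EC, where 29% of all genes were called. Only Lag3 missed there, at -1.26 (SE 0.51, adjusted p = 0.0862). In sensitive mice 3 were higher and 3 lower, where 35.7% of all genes were called, and in vehicle mice 2 were higher and 2 lower, where 27% were called. Pdcd1, Tigit, Cd274 and Havcr2 were called in each of the 3 groups.

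Other genes of these pathways were divided between the fractions. Of 18 other genes associated with regulatory T cells, 8 were higher and 7 lower in EC. Higher ones included Entpd1 (CD39, an ectonucleotidase that endothelium also carries) by 2.72 and Lrrc32 (GARP) by 1.35, and the IL-2 receptor chain Il2rb was lower, at -2.28. Of 22 other genes on the checkpoint list, which holds receptors, ligands and others such as the transcription factor Eomes, 12 were higher and 7 lower. The higher ones included Cd86, a ligand of Ctla4 and Cd28, by 2.35, and Icosl, the ligand of Icos, by 1.56. Of 19 interferon-gamma response genes, 6 were higher and 5 lower, with Cxcl9, a chemokine for T cells, higher by 1.32.

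The next question was whether these genes differ in the endothelial fraction of tumours that had or had not responded to sunitinib. Resistant EC against vehicle EC gave 1 member called, Foxp3, lower, where 46.3% of all 17946 genes tested were called. Foxp3 was -4.17, -4.87, -6.67 and -6.09 in resistant EC, against -0.80, -1.77, -1.76 and -1.94 in vehicle EC. Every resistant value lay below every vehicle value. The fitted difference was -3.88 (SE 0.46, adjusted p = 2.28e-05). Its size rests in part on the 3 dim arrays. With those 3 at their lowest signal well above background, Foxp3 was at least 6.56-fold lower in resistant EC than in vehicle EC. This bound holds only for the main background and scaling, and the alternatives given below had smaller differences.

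Foxp3 was well above background on 1 of the 4 resistant EC arrays, against 4 of 4 vehicle and 4 of 4 sensitive EC arrays. The size of the difference changed with the treatment of background, being -1.17 (adjusted p = 0.00107) with normexp correction and -1.87 (adjusted p = 0.000177) with the deposited values. Under normexp the median of all genes was 0.29 rather than 0.03, and the share of calls that were higher was 77.2% rather than 41.4% (51.6% with the deposited values).

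None of the other 9 members passed in resistant against vehicle EC, and the intervals leave room for change in either direction. Ctla4 was -1.65, -3.15, -4.23 and -4.21 in resistant EC, against 0.78, -2.44, -3.14 and -2.53 in vehicle EC, a difference of -1.48 with a 95% interval of -3.27 to 0.31. Il2ra was -1.59, -3.12, -3.23 and -3.84 in resistant EC, against 0.17, -2.14, -2.87 and -2.12 in vehicle EC, a difference of -1.21 with an interval of -2.64 to 0.23. Both genes overlap between the groups, with vehicle mouse 2 well above the other 3 vehicle mice. Cd274 differed by 0.37 (interval -0.37 to 1.11), Pdcd1lg2 by 0.84 (interval -0.24 to 1.92) and Havcr2 by 0.73 (interval -0.23 to 1.70).

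Resistant EC against sensitive EC gave 3 members called, 1 higher and 2 lower, where again 46.3% of genes were called. Foxp3 was -4.17, -4.87, -6.67 and -6.09 in resistant EC, against -1.61, -1.60, -1.75 and -1.50 in sensitive EC, with no overlap and a fitted difference of -3.84 (SE 0.46, adjusted p = 2.55e-05). With the 3 dim arrays at that lowest signal, Foxp3 was at least 6.34-fold lower in resistant EC, a bound for the main background and scaling only. The sensitive values lay within a narrow band, and the difference was -1.12 with normexp and -1.77 with the deposited values, still called. Il2ra was -1.59, -3.12, -3.23 and -3.84 in resistant EC, against -1.90, -1.86, -0.24 and -0.89 in sensitive EC, and the difference of -1.72 (SE 0.66, adjusted p = 0.0487) came with overlapping groups. It was well above background on 3 of the 4 resistant EC arrays. Lag3 was -1.54, -1.03, -1.21 and -1.42 in resistant EC, against -2.44, -1.90, -1.56 and -1.53 in sensitive EC, a difference of 0.56 (SE 0.21, adjusted p = 0.0436), and resistant mouse 1 was the only resistant value below a sensitive one.

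The calls on Il2ra and Lag3 were close to the threshold. Il2ra was -0.95 after quantile scaling, -0.85 in the deposited values and -0.81 under normexp, none of them called, and it lost its call in 9 of 12 fits that left out 1 array. Lag3 was 1.13 after quantile scaling and 0.93 in the deposited values, both called, and lost its call in 8 of 12 such fits, the smallest Lag3 difference being 0.36 (adjusted p = 0.124) without sensitive mouse 2. Same-numbered mice of different groups are different animals. Their deviations correlated at 0.10 to 0.33 between resistant and sensitive EC. The range was -0.35 to 0.02 between sensitive and vehicle EC and -0.23 to 0.24 between resistant and vehicle EC. With the mouse number as a replicate block 6 members were called. Added were Ctla4, lower at -2.41 (adjusted p = 0.0301), Cd274, higher by 0.73 (adjusted p = 0.0402), and Havcr2, higher by 0.86 (adjusted p = 0.026). These added calls rest on a block that ties unrelated mice together.

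Sensitive EC against vehicle EC gave 0 members called by limma and 0 of 10 at an unadjusted p under 0.05, where 0% of all genes were called and 972 had an unadjusted p under 0.05. Foxp3 differed by -0.05 with a 95% interval of -1.05 to 0.95, and Il2ra by 0.52 with an interval of -0.91 to 1.95. The widest was Ctla4, at -1.48 to 2.10. Sensitive and vehicle EC lay on 1 slide, but in different rows of it.

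**Figure D3:**
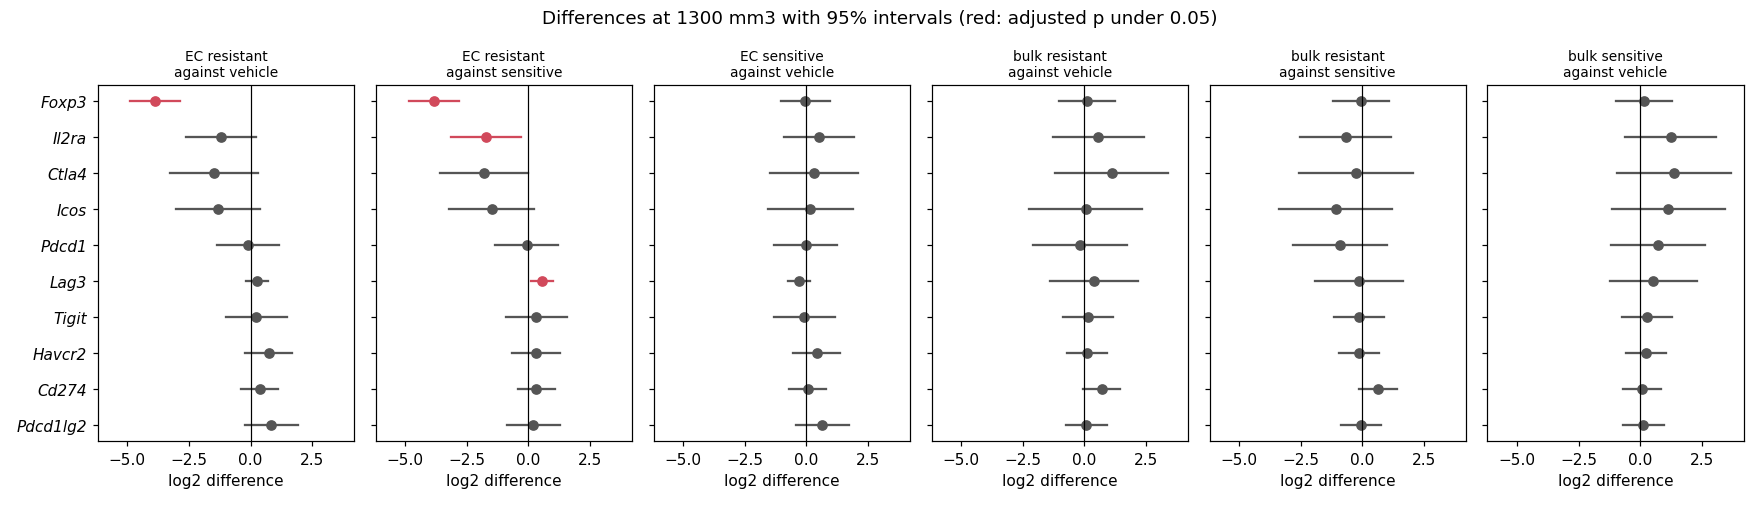
Log2 differences of the 10 genes with 95% intervals (x axis) for resistant against vehicle, resistant against sensitive and sensitive against vehicle mice, in the EC and bulk fractions; red marks an adjusted p under 0.05. Foxp3 lies farthest from 0 in EC, at -3.88 and -3.84 in resistant mice, sizes that rest in part on 3 dim arrays. Il2ra and Lag3 are also red in resistant against sensitive EC, and no gene is red in bulk.

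Related genes were described by list, beside the 46.3% of all genes called in resistant against vehicle EC. Of 18 other regulatory T cell genes, 2 were higher and 4 lower against vehicle EC, the lower ones including the chemokine receptor Ccr8 at -1.88. The cytokine Il2 and the chemokine receptor Ccr4 were also called lower, but stood well above background on none of the resistant EC arrays, so no size is given. Of 16 T cell markers, 2 were lower, Cd4 at -2.77 and Ubash3a, which like Il2 and Ccr4 was dim on all 4 resistant EC arrays, with a list median of -0.51 against 0.03 over all genes.

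Of 22 other checkpoint genes, 1 was higher and 5 lower. On no resistant EC array were Fgl1, a ligand of Lag3, Cd226, Cd160 or Ido1 well above background. The called shares of these regulatory T cell, T cell and checkpoint lists lie below that of all genes. The interferon-gamma response was the list with the most higher calls, 11 of 19 and none lower, with Cxcl10 at 1.25 and the guanylate-binding protein Gbp5 at 1.19. All 19 stood well above background on every resistant and vehicle EC array. Genes well above background on every EC array also leaned higher. Of their 4468 calls among 12590 genes, 74.8% were higher, against 41.4% in the main fit, and their median was 0.26. The part of this in the list's calls was not tested. Cd274 and Pdcd1lg2, which interferon gamma is known to induce, were not called with it.

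Against sensitive EC the counts were 1 higher and 5 lower regulatory T cell genes of 18, 11 higher interferon-gamma genes of 19 and 11 lower endothelial markers of 12. Of the calls over all genes there, 38.0% were higher, against 72.8% with normexp and 69.5% among genes well above background on every EC array. Against vehicle EC, 0 of 12 endothelial markers were called lower.

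In the bulk fraction no treatment comparison called a member by limma. Resistant against vehicle bulk called 0 of 10, and 0 at an unadjusted p under 0.05, where 7.97% of all 16967 genes were called. Resistant against sensitive bulk called 0 of 10, also 0 unadjusted, where 12.3% were called. Sensitive against vehicle bulk called 0 of 10, also 0 unadjusted, where 0% of genes were called and 1085 had an unadjusted p under 0.05.

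Pdcd1 was 2.60, 2.24, 2.90 and 2.57 in resistant bulk, 2.15, 2.51, 4.68 and 4.53 in sensitive bulk and 4.44, 0.65, 1.63 and 4.22 in vehicle bulk. The sensitive and vehicle tumours spread over several log2 units, and the 4 resistant tumours lay close together inside that spread. The difference of resistant against vehicle was -0.16 (95% interval -2.07 to 1.76), and that of sensitive against vehicle was 0.73 (interval -1.18 to 2.65).

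Ctla4 was -0.03, 0.30, -0.60 and 0.05 in resistant bulk, -0.53, -0.62, 1.18 and 0.73 in sensitive bulk and 1.21, -4.80, -1.32 and 0.22 in vehicle bulk. Vehicle mouse 3 was the lowest of the 12, and the differences against vehicle were 1.11 (interval -1.21 to 3.42) for resistant and 1.36 (interval -0.95 to 3.68) for sensitive mice. Ctla4 was well above background on 3 of the 4 vehicle bulk arrays.

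Foxp3 in bulk was -2.48, -0.99, -3.33 and -2.06 in resistant mice, -2.08, -2.34, -2.33 and -1.93 in sensitive mice and -1.26, -3.22, -2.96 and -1.84 in vehicle mice. The 3 groups overlap, with a resistant difference against vehicle of 0.11 (interval -1.03 to 1.24). Cd274, which had the smallest adjusted p of the 10 against vehicle, was 2.62, 1.85, 2.36 and 2.59 in resistant bulk, against 2.17, 0.58, 1.74 and 2.10 in vehicle bulk, a difference of 0.71 (SE 0.35, adjusted p = 0.249). Among other genes, Fgl1 was called lower in resistant bulk, where 3 of its 4 values were not well above background. Cd4 was lower in resistant bulk against vehicle and against sensitive, at -1.62 and -1.54, and the IL-2 signal transducer Stat5a was higher by 1.01 and 0.85.

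The difference in the resistant effect between fractions was tested as an interaction with the mouse as a block. Foxp3 alone of the 10 was called, where 0.268% of all 18277 genes were called: its resistant effect was more negative in EC than in bulk, with a fitted difference of -3.99 (SE 0.50, adjusted p = 0.0181). With the 3 dim resistant EC arrays at their lowest signal well above background, the group means gave -2.82. With normexp it was -1.30 (adjusted p = 0.0451) and with the deposited values -2.09 (adjusted p = 0.0131). Against sensitive mice the same difference was -3.79 (SE 0.50, adjusted p = 0.0264), or -2.62 with the dim arrays so set, again the single member, where 2.51% of genes were called. The sensitive effect did not differ between fractions for any member by limma (0 of 10, and 0 at an unadjusted p under 0.05, where 0% of genes were called). The call against vehicle mice was lost without either of 2 of them, the adjusted p being 0.0648 without vehicle mouse 4 and 0.0514 without vehicle mouse 5.

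The smaller tumours, day 9 and 600 mm3, addressed sunitinib before the tumours reached full size. Over both stages, sunitinib against vehicle called 0 of 10 members by limma, where 0% of 17443 genes were called. At an unadjusted p under 0.05 there were 4 members, all lower, against 1746 of all genes. They were Ctla4, Cd274, Lag3 and Havcr2.

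Havcr2 was -0.54 and 0.09 at day 9 with sunitinib, against -0.16 and 0.20 with vehicle, and -1.19 and -1.55 at 600 mm3 with sunitinib, against 0.48 and 0.28 with vehicle. The 600 mm3 groups separate by more than 1 log2 unit and the day 9 groups do not. The difference over both stages was -0.999 (SE 0.20, adjusted p = 0.167). At 600 mm3 alone it was -1.75 (SE 0.29, adjusted p = 0.0418), the single member called there, lower, where 1.65% of genes were called and 8 of 10 members had an unadjusted p under 0.05, beside 2553 of all 17443 genes.

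At day 9, 0 of 10 were called by limma, 0 at an unadjusted p under 0.05, where 0% of genes were called. The change in the sunitinib effect between the stages called 0 of 10, with 2 at an unadjusted p under 0.05 beside 2690 of all 17443 genes, where 0.166% of genes were called. For Havcr2 that change was -1.50 (SE 0.41, adjusted p = 0.198) and for Pdcd1 -1.49 (SE 0.52, adjusted p = 0.268).

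The 2 sunitinib tumours at 600 mm3 were the lowest group for 8 of the 10 genes, all but Foxp3 and Tigit. The share of all genes lowest in this group was not counted. Lag3 was -3.35 and -3.96 there, against -2.05 and -2.34 with vehicle. Icos was -3.34 and -3.94 with sunitinib, against -1.64 and -2.69 with vehicle, and Cd274 was 0.49 and 0.71 with sunitinib, against 2.28 and 1.58 with vehicle. None of these 3 was called. The T cell marker mean was -1.69 to -1.36 in these sunitinib tumours, against -0.42 to -0.30 with vehicle, and the macrophage and dendritic mean was -0.88 to -0.08, against 0.97 to 1.44. The part of either in the member levels was not tested.

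Between the stages, with both treatments averaged, 600 mm3 against day 9 called 1 member, Lag3, lower, where 4.33% of genes were called. Lag3 was -3.35 and -3.96 with sunitinib and -2.05 and -2.34 with vehicle at 600 mm3, against -1.77 and -2.22 with sunitinib and -1.75 and -0.99 with vehicle at day 9. The difference was -1.24 (SE 0.25, adjusted p = 0.0427), and 6 members had an unadjusted p under 0.05, beside 3994 of all 17443 genes. The call was lost with quantile scaling, without the filter on dim probes, with the replicate block (-1.39, adjusted p = 0.221), and in 7 of 8 fits that left out 1 array. Without vehicle mouse 1 of day 9, however, 4 members were called. Of the lists, no T cell marker was called, 1 of 18 regulatory T cell genes was lower (Il10, -2.44) and 1 of 22 genes on the checkpoint list was lower (the transcription factor Eomes, -1.52).

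The bulk fraction of 1300 mm3 sensitive tumours was next set against the smaller sunitinib tumours, also labelled sensitive. The larger ones are what PECAM-1 selection left, whereas the smaller ones were not split. Of the 10 members, 5 were called higher and none lower, where 16.9% of all 18563 genes were called: Ctla4, Icos, Pdcd1, Lag3 and Il2ra. The difference was 5.11 (SE 0.91, adjusted p = 0.00293) for Ctla4, whose levels were -0.53, -0.62, 1.18 and 0.73 at 1300 mm3, against -4.47 and -3.82 at day 9 and -5.68 and -5.73 at 600 mm3. At 600 mm3 Ctla4 was well above background on 1 of the 2 sunitinib arrays, so the size of its difference rests in part on a dim array.

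Icos was 1.03, 0.63, 3.13 and 2.34 at 1300 mm3, against -2.06 and -1.32 at day 9 and -3.34 and -3.94 at 600 mm3, a difference of 4.45 (SE 0.93, adjusted p = 0.00662). Its second probe gave 3.68 (adjusted p = 0.014). Pdcd1 was 2.15, 2.51, 4.68 and 4.53 at 1300 mm3, against 0.81 and 0.89 at day 9 and -0.52 and -0.79 at 600 mm3, a difference of 3.37 (SE 0.76, adjusted p = 0.00972). Every 1300 mm3 tumour lay above every smaller sunitinib tumour for each of the 5 called genes. These genes were picked by the same difference, so this adds no support, and the share of all genes that separate was not counted.

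Lag3 was -1.33, -0.90, 1.15 and 1.47 at 1300 mm3, against -1.77 and -2.22 at day 9 and -3.35 and -3.96 at 600 mm3, a difference of 2.92 (SE 0.71, adjusted p = 0.0133). Il2ra was -1.34, -1.42, 0.82 and -0.03 at 1300 mm3, against -2.91 and -2.20 at day 9 and -3.49 and -3.78 at 600 mm3, a difference of 2.60 (SE 0.77, adjusted p = 0.0317). The Il2ra call was lost with quantile scaling (2.33, adjusted p = 0.102), with the deposited values (1.85, adjusted p = 0.0853) and in 6 of 20 fits that left out 1 array.

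Foxp3 at 1300 mm3 was -2.08, -2.34, -2.33 and -1.93 in sensitive tumours, against -2.89 and -3.79 at day 9 and -3.61 and -2.98 at 600 mm3 with sunitinib, a difference of 1.15 (SE 0.48, adjusted p = 0.112) that was not called. Cd274 differed by 0.64 (interval -0.06 to 1.35) and Pdcd1lg2 by 0.42 (interval -0.53 to 1.38). T cell markers were higher for 14 of 16 genes, with a median of 2.80 against 0.13 over all genes, among them Cd5 by 3.79 and Zap70 by 3.37. Other regulatory T cell genes were higher for 8 of 18, including Tnfrsf18 (GITR) by 2.73 and Ccr8 by 1.88. Endothelial markers were lower for 5 of 12 (median -2.49), neutrophil markers higher for 4 of 8 (median 2.51) and natural killer and cytotoxic markers higher for 5 of 10 (median 2.44). Their part in the member differences, and that of the selection, was not tested.

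In vehicle tumours the same comparison called 0 of 10 by limma, with 4 at an unadjusted p under 0.05 beside 5099 of all 18563 genes, where 9.11% of genes were called. Ctla4 was 1.21, -4.80, -1.32 and 0.22 at 1300 mm3, against -4.30 and -3.59 at day 9 and -3.89 and -4.68 at 600 mm3. Its difference, 2.94 (SE 0.91, adjusted p = 0.056), came closest, with vehicle mouse 3 lying below every smaller vehicle tumour. Without that array 3 members were called, and without resistant bulk mouse 2, 2 were. Pdcd1 differed by 2.07 (interval 0.45 to 3.69). T cell markers were higher for 1 of 16, with a median of 1.37. Endothelial markers were lower for 7 of 12 (median -2.91), neutrophil markers higher for 2 of 8 and natural killer and cytotoxic markers for 1 of 10. The larger and smaller tumours lay on different slides, and whether the size effect differs between the treatments was not tested.

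Over the 10 groups, the order of the mean levels was mostly not resolved. Of 9 pairs of neighbours in that order, 2 were separated beyond their spread (mean minus SD above the next mean plus SD) for Foxp3, none for Il2ra and 1 for each other gene. For Foxp3 the order began with vehicle EC (-1.57 ± 0.52, SD, n = 4) and sensitive EC (-1.61 ± 0.10) and ended with resistant EC (-5.45 ± 1.14). For Pdcd1 the 3 bulk groups at 1300 mm3 came first, and resistant bulk (2.57 ± 0.27, SD, n = 4) lay beyond the spread of sunitinib at day 9 (0.85 ± 0.05, n = 2). Cd274 and Havcr2 were highest in resistant, then sensitive, then vehicle EC, neighbours that did not separate.

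The levels within a group also moved together. As a description over the 12 bulk arrays at 1300 mm3, each value was taken as its deviation from the mean of its treatment group and set against the mean of 16 T cell markers treated the same way. Pearson's r was 0.97 for Pdcd1, 0.97 for Lag3, 0.95 for Il2ra, 0.94 for Tigit, 0.91 for Icos and 0.90 for Ctla4, and Spearman's rho of these 6 lay between 0.82 and 0.95. Without the 2 arrays farthest from the median T cell level these were 0.95, 0.95, 0.90, 0.93, 0.80 and 0.89. Over all 16582 genes the median r was -0.07, and the 5th and 95th percentiles were -0.74 and 0.64.

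Foxp3 tracked the T cell level less closely in bulk, with r = 0.61, which was 0.34 without the 2 farthest arrays. Cd274 was at 0.49, and -0.09 without them, so its relation rests on those arrays. Pdcd1lg2 was at 0.89 and Havcr2 at 0.73. The arrays of a group share a slide, and genes measured on one array share its RNA.

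**Figure D4:**
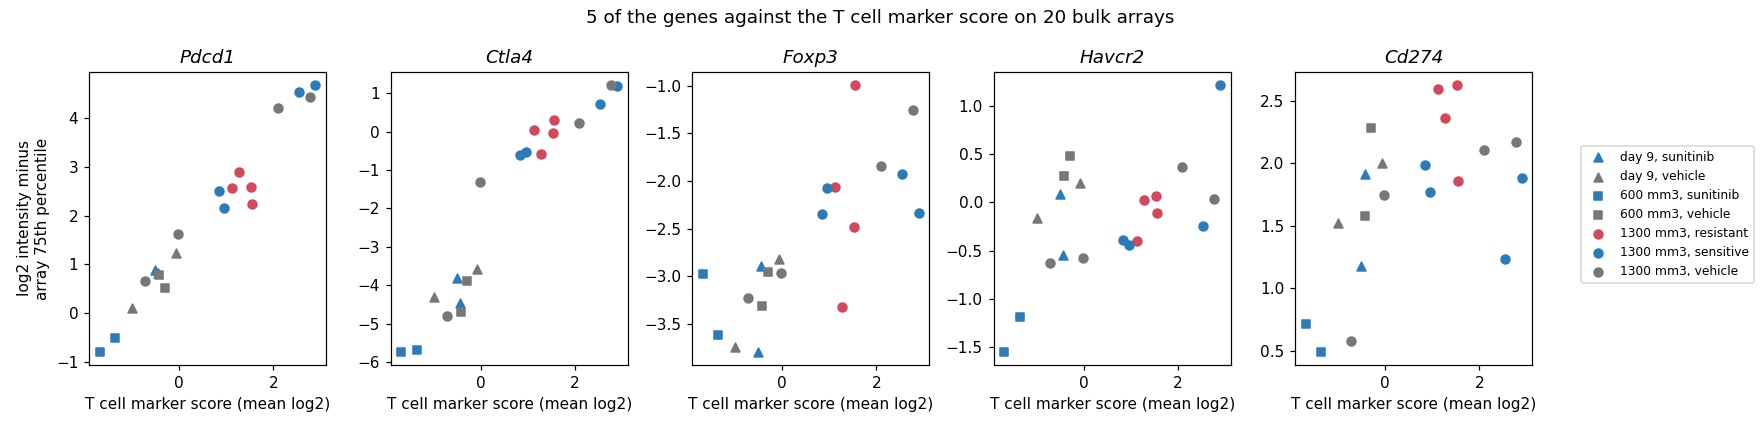
Levels of Pdcd1, Ctla4, Foxp3, Havcr2 and Cd274 (y axes, log2 processed intensity minus the array's 75th percentile) against the mean level of 16 T cell markers (x axis, the same scale) on the 20 bulk arrays, by treatment and stage. Pdcd1 and Ctla4 follow the T cell mean closely and Cd274 does not.

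In the EC fraction the relations differed between members. Over its 12 arrays, r with the T cell level was 0.96 for Icos, 0.96 for Ctla4, 0.91 for Il2ra, 0.82 for Pdcd1, 0.54 for Tigit, 0.67 for Foxp3, 0.09 for Lag3 and -0.01 for Pdcd1lg2, against -0.41 for Cd274 and -0.54 for Havcr2. For Tigit, Spearman's rho was 0.91, and r was 0.73 without the 2 arrays farthest from the median T cell level. The 5th and 95th percentiles of r with the T cell level over all genes were -0.68 and 0.59. With the macrophage and dendritic level, r was 0.86 for Cd274 and 0.82 for Havcr2, both below the 95th percentile over all genes, 0.88. Without the 2 arrays farthest from the median of that level these were 0.78 and 0.76. With the tumour epithelial level, r was -0.67 for Cd274 and -0.55 for Havcr2, where the 5th percentile was -0.75. Without the 2 arrays farthest from the median epithelial level these were -0.92 and -0.63.

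Genes whose levels were most like a member's over all 32 arrays were named by the highest Pearson r among 16581 genes. Such values include the differences between groups. Foxp3 was nearest to Lingo4 at 0.88, Styxl1 at 0.88 and Izumo1r at 0.88. Izumo1r belongs to the folate receptor family and is known on regulatory T cells. Pdcd1 was nearest to Cd8a at 0.98, Ctsw at 0.96 and Il2rb at 0.96, Lag3 to Nkg7 at 0.94, Ifng at 0.91 and Tbx21 at 0.90, and Tigit to Pdcd1 at 0.85, Cd8a at 0.84 and Isg20 at 0.83.

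Ctla4 was nearest to Icos at 0.96, Cd5 at 0.96 and Cd28 at 0.94, Icos to Cd28 at 0.97, Ctla4 at 0.96 and Cd5 at 0.96, and Il2ra to Icos at 0.92 and Stat4 at 0.92. Cd274 was nearest to Runx3 at 0.93, Fnbp1 at 0.92 and Litaf at 0.92, Havcr2 to Ripk3 at 0.93, Nckap1l at 0.93 and Runx3 at 0.93, and Pdcd1lg2 to Gm15056 at 0.81, Mcoln2 at 0.81 and Prr5l at 0.80. Runx3 is thus near to both Cd274 and Havcr2, whereas the receptors with T cell roles are nearest to T cell genes and to one another.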

How the data were processed

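Single-colour Agilent arrays (Cy3) were made from 32 tumour fractions, per the labels. The deposited scanner files hold intensity per spot from Feature Extraction 10.7.3.1, per the file headers, while the submitters' processing notes name version 9.1. Their header build is mm9. Names come from RefSeq accessions matched to a GRCm38.p6 table, so only promoter coordinates are given, from that build. Of 59305 non-control spots, 55681 probes remained after averaging and 26582 had a gene name, for 20145 genes. The main value was the log2 of the processed signal minus the array's 75th percentile. The authors' deposited value table correlated with it at r 0.96 to 0.99 within arrays and served as an alternative, its centring and scale being unstated. No member value was saturated or at or below 0. The number of arrays limits the precision, and nothing says that mice of a group came from separate cages or litters.

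Genes entered a fit if well above background on at least 4 arrays (at least 2 for smaller tumours). limma 3.58.1 in R 4.3.3 (lmFit, eBayes) was run across all genes with Benjamini-Hochberg adjustment, on the 12 EC arrays, the 12 bulk arrays at 1300 mm3, the 8 smaller tumours, all 20 bulk arrays, and, with the mouse as a block, the 24 arrays of both fractions. Both fractions of a tumour are paired by mouse, as labelled. Their deviations from group means correlated at 0.18 to 0.48 in 11 mice and at -0.03 in resistant mouse 4, and EC against bulk called 10 members without that mouse too. Mice of different groups that share a number are different animals: their deviations from group means correlated at 0.10 to 0.33 between resistant and sensitive EC and at 0.16 and 0.10 in the smaller tumours, all over 0.1 there, and not all over it in the other sets. Alternatives were normexp background with offset 50 (on the median signal, as the files hold no mean signal), quantile scaling, the deposited values, no filter, a filter on every array, the mean of all probes, the replicate block and each array left out. Scripts were tested on simulated data. All 10 members are named. From each list, up to 4 genes with the smallest p among those called were eligible, and for likeness the 3 genes with the highest r. A gene that these rules would name is not reported here. The members and lists were chosen with earlier results of these data known. The promoter motifs and the use of the slide that holds both fractions were chosen after seeing the data. List genes Itgae, Ceacam1, Cxcl11, Cd68 and Ly6g were not matched on the array.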

Additional observations from a re-analysis of the deposited data

Results flagged for a closer look

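Among single values, 3 stood apart from the other 3 of their group by the usual test for an outlying value. Foxp3 in vehicle EC was highest in mouse 2, at -0.80, and the nearest other value was -1.76. Havcr2 in resistant EC was lowest in mouse 1, at 0.68, and the nearest was 2.10. Havcr2 in sensitive bulk was highest in mouse 4, at 1.22, and the nearest was -0.24. In all, 66 groups of 4 were tested, and chance marks about 1 in 20.

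The resistant effect on Foxp3 differed between fractions by a test of the difference itself. It was more negative in EC than in bulk, with a difference of -3.99 against vehicle mice and -3.79 against sensitive mice. The resistant EC arrays had the lowest shares of probes well above background (46.1% to 52.9%), and Foxp3 was well above background on 1 of these 4. The part of this in the difference was not tested.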

How the results depend on the processing

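Of 21 called results on single members in the 13 main comparisons, 12 kept their call and direction in every setting that tested the gene and every fit that left out 1 array. Calls within 1 treatment group or 1 stage, and the difference between fractions against sensitive mice, were not among the 21. Among these, Foxp3 and Ctla4 do not pass the filter on every array and were not tested in that setting. Counts of members called moved as follows. Resistant against vehicle EC, 1 as reported, had 2 with quantile scaling, 3 with the deposited values, 0 of 7 tested with the filter on every array and 5 with the replicate block, and 1 to 3 with an array left out (3 without resistant EC mouse 1). Resistant against sensitive EC, 3 as reported, had 1 with the filter on every array, 6 with the replicate block, and 1 to 4 with an array left out. For 600 mm3 against day 9, 1 as reported, there were 0 with quantile scaling, 0 without the filter, 0 with the replicate block, and 0 to 4 with an array left out. The resistant effect in EC against bulk, 1 as reported, had 0 with the filter on every array, which Foxp3 does not pass, and 0 to 1 with an array left out. Vehicle tumours of 1300 mm3 against smaller, 0 as reported, had 1 with normexp, and 0 to 3 with an array left out. The sensitive tumours had 4 to 7. EC against bulk, 10 as reported, had 9 with normexp, 8 with quantile scaling, 8 with the deposited values, 7 of 7 tested with the filter on every array, 7 with no replicate block (Foxp3, Il2ra and Icos lost), 9 on the slide that holds both fractions (Lag3 lost), and 10 with each mouse left out. Foxp3 turned there to 0.0713 with normexp. The causes were not tested beyond the filters' own construction. The replicate block changed the count in no comparison other than those named. Signal over background limits Foxp3 in resistant EC above all.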

Other observations

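Each mouse gave 2 fractions, so its EC and bulk levels can be set against each other as deviations from the treatment group means, over 12 mice that share slides by fraction. Pearson's r was 0.75 for Il2ra, 0.58 for Icos, 0.55 for Lag3, 0.52 for Ctla4, 0.51 for Foxp3 and 0.51 for Pdcd1. It was 0.38 for Cd274, 0.27 for Pdcd1lg2, 0.23 for Havcr2 and 0.04 for Tigit. For the genes above 0.5, r was taken again without the 2 mice whose EC deviation lay farthest from the median. It was then 0.59 for Il2ra, 0.25 for Icos, 0.29 for Lag3, 0.32 for Ctla4, 0.63 for Foxp3 and 0.50 for Pdcd1. With all 12 mice, the median r over 16582 genes was 0.25, with 5th and 95th percentiles of -0.38 and 0.74. Il2ra lay at the 95th percentile of the genes, and the other 9 members lay between these percentiles.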
